A study of Danio rerio with 4 samples.

Results

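The solute carriers described here move amino acids, sugars, lactate and related small molecules across membranes. They were taken by symbol: every gene written in lower case as slc1a, slc2a, slc3a, slc5a, slc6a, slc7a, slc16a, slc38a or slc43a, with slc2a1a and slc16a1a left out because both serve as brain capillary markers. This gave 122 of the 25432 genes counted, of which 118 had at least 1 transcript in the cells analysed. By family they were 26 slc6a, 17 slc7a, 16 slc2a, 15 slc16a, 13 each of slc1a, slc5a and slc38a, 6 slc43a and 3 slc3a genes. The symbol rule also takes in slc7a6os, which is not a transporter and lies next to slc7a6, and the counting notes used here do not say how strand was handled, so reads of these neighbours may not be fully separable.

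Cells came from whole zebrafish embryos at 3 days post fertilization (dpf) that carried a transgene, labelled Tg(kdrl:EGFP)zf531Tg, in which the promoter of the endothelial receptor gene kdrl drives a green fluorescent protein. Embryos were pooled and dissociated, and fluorescent cells were sorted and sequenced as single cells by 10x Genomics 3′ tag counting. The groups were 2 wild-type (WT) libraries and 2 libraries of flt1ka604 mutant embryos (flt1mut). Flt1 is a decoy receptor for Vegfa, and its loss serves as a Vegfa gain of function model. The transgene is shared by both groups, and the study's methods list a kdrl:EGFP line under another allele designation than the sample labels. By the marker lists that named its cells, the sort held blood as well as endothelium. The summed level of 14 endothelial markers was 5518 to 7008 CPM in the endothelial and 61.5 to 116 CPM in the blood cells. CPM are transcript counts scaled to the total of the summed cells. These markers helped to name the endothelial cells, so their difference follows from the naming and is no separate evidence.

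Nutrient transporters decide which small molecules a cell can take up or release. Exchangers of large neutral amino acids, such as LAT1, work as pairs in which a light chain of the slc7a family is held at the membrane by the heavy chain 4F2hc, encoded by slc3a2. Brain endothelium forms the blood-brain barrier and depends on glucose, lactate and amino acid carriers to feed nervous tissue, whereas granulocytes rely strongly on glycolysis. Zebrafish keep duplicate copies of many of these genes, marked a and b.

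Of 7677 called cells, 5191 passed the limits on genes and mitochondrial reads, 737 and 1093 in the WT libraries and 2065 and 1296 in the flt1mut libraries, with 12503937 to 28002111 transcripts each and medians of 11165 to 16940 per cell. Pairs of libraries shared 0 to 4 cell barcodes. Clusters were formed without the transporter genes, although genes that vary together with them remained, and were named from marker lists with thresholds set after the clusters had been seen. The 1244 endothelial cells held brain capillary-like (148 cells), arterial-like (223), venous-like (195), endocardial-like (402) and lymphatic-like (143) cells and 133 unnamed cells, and the 2185 blood cells held lymphoid-like (882), gata2b progenitor-like (335), drl progenitor-like (372), granulocyte-like (224), thrombocyte-like (188) and erythrocyte-like cells. A further 409 dividing blood-like cells were kept apart, and "blood" and "other blood" below leave them out. Libraries were uneven: an endocardial-like subcluster of 136 cells had 1 cell of flt1mut 1, a venous-like subcluster of 89 cells had 66 of that library, and erythrocyte-like cells of WT 2 numbered only 6, so that this class was compared over 3 libraries. Doublets were not removed.

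Levels are CPM of transcripts summed over the cells of a class in a library, given in the order WT 1, WT 2, flt1mut 1 and flt1mut 2. A tag is counted once per molecule, so transcript length does not enter when levels of different genes are set side by side. How well each gene's 3′ end was captured was not checked, and reads of neighbours or near copies may be divided. Rankings between genes, families and copies are therefore approximate. Differences are log2 fold changes ± SE on the scale set by TMM normalization (trimmed mean of M-values), and every adjusted p is from edgeR's quasi-likelihood test, two-sided, with Benjamini-Hochberg adjustment over all genes tested and a threshold of 0.05. "Other blood endothelial" means arterial-like and venous-like cells, and "blood endothelial" adds the brain capillary-like cells to them. In summed cells, fewer cells with a transcript and less RNA per cell cannot be told apart.

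Among the transporters of the endothelial classes the slc38a family had the highest level. The members' summed level was 1306 ± 128 CPM (SD, n = 4 libraries) in brain capillary-like, 1155 ± 87.1 in arterial-like, 1565 ± 235 in venous-like, 1372 ± 135 in endocardial-like and 1451 ± 189 in lymphatic-like cells. In blood it was 739 ± 112 CPM in lymphoid-like, 716 ± 135 in drl progenitor-like, 812 ± 39.3 in gata2b progenitor-like, 991 ± 80.0 in granulocyte-like and 1155 ± 103 in thrombocyte-like cells, and 571 ± 152 CPM (n = 3) in erythrocyte-like cells. These sums have no test. Each venous-like sum, at 1380 to 1882 CPM, lay above each arterial-like one, at 1038 to 1230 CPM, whereas direct neighbours in the order of all classes lie within their SDs except granulocyte-like and gata2b progenitor-like cells.

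slc38a2, which encodes the sodium-coupled neutral amino acid transporter SNAT2, was the member with the highest mean in all 5 named endothelial classes, from 296 CPM in arterial-like to 633 CPM in lymphatic-like cells. It accounted for 25.7 to 43.2% of the members' summed level in these classes and for 9.48 to 22.4% in the blood classes. slc38a5b, a system N carrier of glutamine, histidine and related amino acids, stood next at 159 to 261 CPM in all of them except lymphatic-like cells, where it was at 53.4 CPM. Averaged over classes, the slc38a family summed to 722 CPM in endothelial and 267 CPM in blood classes, and the slc7a family to 308 and 178 CPM. The slc7a sums include slc7a6os, which is not a transporter. Its mean in the named endothelial classes ran from 55.2 CPM in endocardial-like to 103 CPM in arterial-like cells. The slc2a sugar carriers averaged 55.2 CPM over the blood and 27.6 CPM over the endothelial classes, and the slc5a sodium cotransporters 24.0 and 4.1 CPM, with no test. Thrombocyte-like cells weighed heavily in both, at 169 CPM of slc2a, of which slc2a3b was 141 CPM, and at 79.8 CPM of slc5a, of which slc5a8l was 74.8 CPM. Erythrocyte-like cells, at 6.16 and 0.242 CPM, lay below the endothelial averages. For slc2a, lymphoid-like cells at 11.6 CPM and drl progenitor-like cells at 9.31 CPM lay below it too. Granulocyte-like cells were at 105 CPM of slc2a and gata2b progenitor-like cells at 30.2 CPM.

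**Figure D1:**
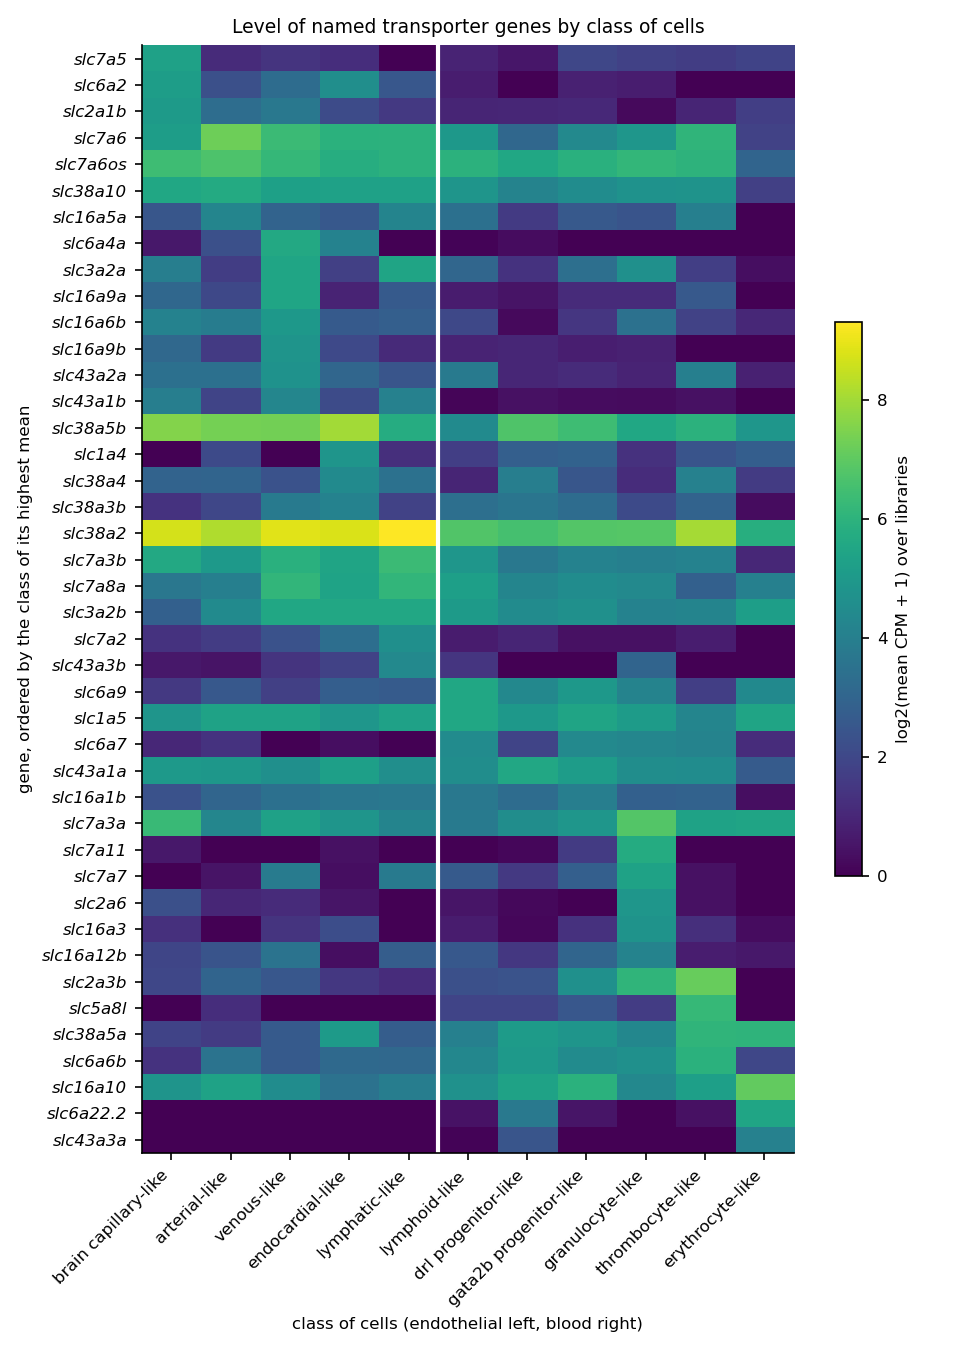
Levels of the 42 named members that reached 10 CPM in a class, as the log2 of the mean CPM plus 1 over libraries (colour), with classes in columns and genes in rows. slc38a2 is high in every endothelial class (296 to 633 CPM), whereas slc7a5, slc7a11 and slc43a3a are each high in few classes.

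Across the 16 classes, including non-vascular cells of the sort, 65 members had a mean of 10 CPM or more in at least 1 class. Of these, 23 had their highest mean in neuron-like cells, 7 in venous-like, 6 in lymphatic-like, 5 each in granulocyte-like, thrombocyte-like and mesenchymal-like and 3 in brain capillary-like cells, and small classes such as the neuron-like one can reach a high mean from few transcripts. Several genes picked for their known roles were nearly absent from vessels and blood. slc6a8, a creatine transporter, had a mean of at most 0.75 CPM in any of the 11 named vascular and blood classes, slc5a3a, a myo-inositol transporter, at most 0.759 CPM, and slc2a3a, a GLUT3 copy, at most 1.39 CPM.

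Endothelial and blood cells were compared within libraries to find which carriers separate both lineages of the sort. Of 59 members tested, 15 were higher in endothelial cells and 25 were lower, and over all 12717 genes tested 32.8% were higher and 34.8% lower. The median log2 fold change was -0.18 over the members and -0.08 over all genes. The split depended on scaling: when library totals replaced TMM, 25 members were higher and 17 lower, against 48.0% and 20.4% of all genes, and the medians moved to 0.46 for the members and 0.57 for all genes. The genes described next kept their direction and their call under both scalings, except slc43a1a and slc7a3a.

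Among the neutral amino acid carriers, slc38a2 was at 436, 419.9, 406 and 463 CPM in endothelial cells and at 86.9, 139, 69.5 and 136 CPM in blood cells. Every endothelial value lay above every blood value, with a log2 fold change of 1.40 ± 0.17 (edgeR adjusted p = 2.57e-05). slc38a5b was at 190.1, 175, 162 and 175 CPM against 57.3, 59.1, 56.2 and 64.7 CPM, also without overlap (0.92 ± 0.13, edgeR adjusted p = 7.54e-05). Its duplicate slc38a5a went the other way, at 25.8, 15.6, 9.92 and 9.11 CPM against 23.3, 30.2, 22.9 and 36 CPM (-1.63 ± 0.28, edgeR adjusted p = 3.74e-04), with overlap because WT 1 was higher in endothelial cells. slc43a1b, a copy of LAT3, a carrier of branched-chain amino acids and phenylalanine, was at 6.62, 11, 5.82 and 8.35 CPM in endothelial cells and at 0.267, 0.295, 0.148 and 0.172 CPM in blood cells, a difference of 4.47 ± 0.44 (edgeR adjusted p = 4.28e-06). Its duplicate slc43a1a had means of 30.0 ± 6.21 and 29.6 ± 5.68 CPM (SD, n = 4), and the sign of its fold change depended on the scaling.

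Of the slc7a genes that carry cationic amino acids, slc7a6, slc7a3b and slc7a2 were higher in endothelial cells, and slc7a7 and slc7a3a were lower. slc7a6, which encodes the exchanger y+LAT2, was at 67.6, 66.4, 95.8 and 85.4 CPM against 20.4, 17.2, 25.9 and 23.3 CPM, without overlap (1.21 ± 0.14, edgeR adjusted p = 2.11e-05). slc7a3b, a cationic amino acid transporter, was at 64.9, 61.5, 47.9 and 44.4 CPM against 12.1, 32.7, 11.7 and 16.5 CPM, again with every endothelial value above every blood value (1.02 ± 0.23, edgeR adjusted p = 0.00259). slc7a2, of the same kind, differed by 3.74 ± 0.84 (edgeR adjusted p = 0.00224) and was detected in blood cells of WT 2 alone. slc7a7, which encodes the exchanger y+LAT1, was at 0.662, 1.53, 12.7 and 1.14 CPM against 8.4, 6.19, 9.9 and 9.27 CPM, lower in 3 libraries and higher in flt1mut 1 (-1.97 ± 0.52, edgeR adjusted p = 0.00566). slc7a3a had means of 30.6 ± 13.4 and 33.2 ± 15.4 CPM (SD, n = 4), and its call (-0.74 ± 0.21, edgeR adjusted p = 0.00822) was lost without WT 1 or flt1mut 2 and with library totals.

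Among the sugar carriers, slc2a1b, the GLUT1 copy that is not a marker here, had means of 9.32 ± 3.62 CPM in endothelial and 1.02 ± 0.172 CPM in blood cells (SD, n = 4) and differed by 2.53 ± 0.35 (edgeR adjusted p = 6.20e-05). slc2a3b, a GLUT3 copy, went the other way and was called lower with TMM, the only scaling given for it here. Both calls held without any 1 library. Mean slc2a3b was 6.98 CPM in arterial-like, 4.76 CPM in venous-like, 141 CPM in thrombocyte-like and 0 CPM in erythrocyte-like cells.

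The members that were lower in endothelial cells included glycine, proline and taurine carriers of the slc6a family. slc6a9, which encodes the glycine transporter GlyT1 that supplies glycine to erythroid cells, was at 3.31, 4.28, 6.5 and 3.79 CPM in endothelial and 19.3, 32.4, 27.9 and 37.8 CPM in blood cells (-3.35 ± 0.25, edgeR adjusted p = 4.15e-07). slc6a7, a proline transporter, was at 0, 0.612, 0.684 and 0.759 CPM against 13.3, 12.1, 15 and 17.9 CPM (-5.25 ± 0.37, edgeR adjusted p = 3.23e-07). slc6a6b, a taurine transporter, was at 7.29, 9.18, 7.87 and 4.93 CPM against 18.1, 31.9, 19.1 and 24.6 CPM (-2.33 ± 0.23, edgeR adjusted p = 4.68e-06). None of these 3 overlapped between the lineages. slc16a10, which carries aromatic amino acids, was also lower in every library, with means of 21 ± 5.52 and 43.1 ± 11.8 CPM (SD, n = 4; -1.68 ± 0.17, edgeR adjusted p = 6.60e-06).

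For members at or near 0 in endothelial cells the fold is bounded by counting. slc6a22.2, for which no role is given here, had 0 transcripts in endothelial cells of all libraries and was at least 22.3-fold lower than in blood cells, taking a floor of 3 counts over the group. slc43a3a, a copy of the purine nucleobase transporter gene SLC43A3, also had 0 and was at least 8.64-fold lower. These folds and ratios are on the scale of library totals, and TMM multiplies them by 1.57. slc7a11, which encodes the cystine and glutamate exchanger xCT, had 2 transcripts in endothelial cells and a blood to endothelial ratio of 34.8 (95% exact counting interval 9.54 to 288). slc5a8l had 3 and a ratio of 19.1 (6.45 to 93.1). These ratios do not hold for blood classes alike. In blood slc7a11 lay mainly in granulocyte-like cells, described below, with 0 CPM in thrombocyte-like and erythrocyte-like cells. Of 256 slc5a8l transcripts in blood, 132 were in thrombocyte-like cells. slc6a22.2 has a near copy, slc6a22.1, so their reads may be divided between both genes.

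From the list of glycolysis genes, 8 of 28 tested were higher in endothelial cells and 18 were lower, and 10 and 12 with library totals. bsg, the chaperone of monocarboxylate carriers, was at 416, 430.0, 390.0 and 501 CPM against 118, 120.3, 107.1 and 119 CPM (1.25 ± 0.12, edgeR adjusted p = 3.35e-06). Markers of epithelial cells summed to 6822 to 10765 CPM in endothelial and 99.7 to 225 CPM in blood cells, and 4 of the 8 tested were called higher and 1 lower; their part in the member differences was not tested. When classes of a lineage were weighted equally, an alternative that gave 14 members higher and 14 lower, slc6a22.2, slc5a8l and slc7a11 were among the members no longer called. The share of all genes called under that alternative is not given, so its counts are no result about the members as a set.

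Brain capillary-like cells were compared with other blood endothelial cells to see which carriers besides both marker genes differ there. slc7a5, slc6a2, slc7a3a and slc2a1b were higher and slc7a6, slc3a2b and slc7a8a were lower, so that 4 and 3 of 19 members tested were called. Over all 6009 genes tested 3.51% were higher and 5.26% lower. The median log2 fold change was -0.08 over the members and -0.01 over all genes, and only 16 to 56 brain capillary-like cells stood behind each library's value.

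slc7a5 encodes LAT1, the exchanger of large neutral amino acids that marks the blood-brain barrier in mammals. It was at 30.3, 70.0, 45.4 and 12.6 CPM in brain capillary-like cells and at 0, 1.57, 3.26 and 0 CPM in other blood endothelial cells. The groups did not overlap and the difference was 4.59 ± 0.62 (edgeR adjusted p = 2.47e-05). Unnamed endothelial cells, which are in neither group, had slc7a5 at 42.6, 10.6, 0 and 10.7 CPM. slc6a2, which encodes the norepinephrine transporter, was at 15.2, 31.8, 79.5 and 14.7 CPM against 3.57, 4.72, 10.6 and 6.21 CPM, without overlap and with flt1mut 1 far above the other libraries (2.36 ± 0.49, edgeR adjusted p = 0.00224). Its WT 1 values rest on few transcripts, since the sums compared there held 131807 and 559548 transcripts of all genes. slc7a3a was at 22.8, 125, 96.5 and 69.2 CPM against 12.5, 31.4, 27.7 and 32.3 CPM, higher in each library although WT 1 fell within the range of the other cells (1.58 ± 0.28, edgeR adjusted p = 4.24e-04). All 3 calls held with DESeq2, and those of slc7a5 and slc7a3a held without any 1 library. slc6a2 fell below the filter on low counts, and so was not tested, without WT 2 or flt1mut 1.

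slc2a1b was at 7.59, 63.7, 39.7 and 21 CPM in brain capillary-like and 7.15, 7.86, 18.7 and 6.21 CPM in other blood endothelial cells. It was higher in WT 2, flt1mut 1 and flt1mut 2, and the groups overlapped (1.77 ± 0.44, edgeR adjusted p = 0.011). In WT 1 the values were close. The brain capillary-like sum there, 131807 transcripts from 16 cells, held too few of slc2a1b to give a direction. The call was lost without WT 2 or without flt1mut 2 and with DESeq2. The marker slc16a1a, left out of the members, was at 258, 65.8, 51.1 and 16.8 CPM against 1.79, 0, 22.8 and 0 CPM, and slc16a1b, the remaining copy of the lactate carrier MCT1, was at a mean of 4.05 CPM in brain capillary-like cells.

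The lower members were light and heavy chain genes of amino acid exchangers. slc7a6 was at 37.9, 53.1, 28.4 and 21 CPM against 92.9, 101, 143 and 144 CPM, below in every library without overlap (-1.75 ± 0.28, edgeR adjusted p = 1.56e-04), a call that held without any 1 library. slc3a2b, a copy of the 4F2hc heavy chain gene, was at 0, 10.6, 5.68 and 8.39 CPM against 34, 36.2, 20.4 and 28.6 CPM (-1.93 ± 0.48, edgeR adjusted p = 0.0106), and this call was lost without WT 2 or flt1mut 2 and with DESeq2. The other heavy chain gene, slc3a2a, had a mean of 14.8 CPM in brain capillary-like cells and was not called. slc7a8a, which encodes the related light chain LAT2, had means of 12 ± 11.4 and 35.2 ± 12.8 CPM (SD, n = 4), and its call was lost on leaving out any library. Among the other cells its mean was 15.3 CPM in arterial-like, near the brain capillary-like level, and 69.4 CPM in venous-like cells. Epithelial markers summed to 4150 to 7120 CPM in brain capillary-like and 8158 to 10580 CPM in the other cells, and their part in these differences was not tested.

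Of the companion lists in this comparison, 1 of 19 glycolysis genes was higher and 2 were lower, and 2 of 6 genes of glutamine metabolism were lower. The latter were the glutamine synthetase genes glula, at -1.95 ± 0.31 (edgeR adjusted p = 1.33e-04), and glulb, at -1.97 ± 0.21 (edgeR adjusted p = 7.52e-07). Both were higher in venous-like than in arterial-like cells, which together make up the cells compared with here.

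Venous-like and arterial-like cells were compared along the artery to vein axis. Most of the members that differed were higher in venous-like cells: 8 of 18 tested were higher and 1, slc7a6, was lower, while of all 5216 genes tested 11.4% were higher and 6.73% lower. The median log2 fold change was 1.08 over the members and -0.01 over all genes.

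The amino acid exchanger genes slc3a2a and slc7a8a were higher together. slc3a2a was at 8.84, 63.9, 40.2 and 61.4 CPM in venous-like and 3, 2.31, 1.65 and 2.02 CPM in arterial-like cells, without overlap (4.30 ± 0.60, edgeR adjusted p = 1.28e-04). slc7a8a was at 35.4, 123, 35.4 and 84.1 CPM against 21, 18.5, 11.5 and 10.1 CPM, also without overlap (2.24 ± 0.39, edgeR adjusted p = 7.32e-04). The second heavy chain copy slc3a2b differed by 1.26 ± 0.38 (edgeR adjusted p = 0.0308), a call lost without WT 2, flt1mut 1 or flt1mut 2 and with DESeq2. slc38a2 was at 517, 423, 478 and 492 CPM against 336, 282, 247 and 319 CPM, higher in each library without overlap (0.83 ± 0.19, edgeR adjusted p = 0.0062), a call lost with coarser subclustering.

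Both copies of slc16a9, known in mammals as a carnitine carrier, were higher in venous-like cells. slc16a9a was at 48.6, 83.5, 12.9 and 29.1 CPM against 3, 2.31, 4.95 and 2.02 CPM, without overlap (3.5 ± 0.65, edgeR adjusted p = 0.00132). slc16a9b was at 8.84, 44.2, 1.61 and 55 CPM against 0, 0, 0 and 8.06 CPM, with transcripts in arterial-like cells of flt1mut 2 alone (3.70 ± 0.89, edgeR adjusted p = 0.00852), and was not tested, for low counts, without WT 2 or flt1mut 2. slc6a4a, which encodes the serotonin transporter, was at 31, 113, 1.61 and 48.5 CPM against 6, 4.62, 4.95 and 0 CPM, higher in 3 libraries and lower in flt1mut 1, and its call (3.31 ± 0.79, edgeR adjusted p = 0.00814) was lost without WT 2. slc7a3b and slc7a6, the latter lower in venous-like cells at -0.78 ± 0.22 (edgeR adjusted p = 0.0228), lost their calls under several alternatives, slc7a3b without WT 1, flt1mut 1 or flt1mut 2 and slc7a6 without WT 1 or flt1mut 1.

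In flt1mut 1, 66 of the 87 venous-like cells came from the subcluster that this library dominated, and its venous-like values of slc16a9a, slc16a9b and slc6a4a were the lowest of the 4 libraries. Without that subcluster slc7a6 was no longer called, and the 8 higher members kept their calls. Of the amino acid response list, 6 of 9 genes tested were higher in venous-like cells and none lower, with ddit3, a transcription factor of that response, at 566, 781, 771 and 1093 CPM against 359.9, 270.4, 364 and 397 CPM (1.32 ± 0.21, edgeR adjusted p = 3.12e-04). Of the glutamine metabolism genes 3 of 6 were higher and none lower, led by glula at 128, 398, 48.3 and 217 CPM against 12, 13.9, 18.1 and 0 CPM (3.96 ± 0.52, edgeR adjusted p = 6.63e-05). Lymphatic markers, some of which venous endothelium shares, summed to 1268 to 6609 CPM in venous-like and 156 to 335 CPM in arterial-like cells; their part in these differences was not tested.

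Endocardial-like cells, from the inner lining of the heart, were compared with blood endothelial cells. The system N and system A genes slc38a5a, slc38a5b, slc38a3b and slc38a4 and the carrier gene slc1a4 were higher, and the GLUT1 copy slc2a1b, slc3a2a, slc16a9a and slc16a10 were lower, among 9 members called higher and 6 lower of 31 tested. Over all 8019 genes tested 14.4% were higher and 13.9% lower. With library totals in place of TMM 7 members were higher and 9 lower, against 11.4% and 18.4% of all genes, and the median over all genes moved from -0.01 to -0.16; the genes described next kept their calls.

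slc1a4, which encodes the alanine, serine and cysteine carrier ASCT1, was at 35, 18.6, 18.4 and 39.1 CPM in endocardial-like and 1.45, 2.71, 1.42 and 0 CPM in blood endothelial cells, a difference without overlap of 4.30 ± 0.51 (edgeR adjusted p = 7.78e-06). slc38a5a was at 55.7, 35.6, 20.4 and 19.5 CPM against 2.89, 0, 4.27 and 7.02 CPM, also without overlap (3.12 ± 0.48, edgeR adjusted p = 1.07e-04). Its duplicate slc38a5b rose as well, from a mean of 163 ± 14.4 to one of 261 ± 24.2 CPM (SD, n = 4; 0.83 ± 0.13, edgeR adjusted p = 1.37e-04). slc38a4, a system A carrier, was at 19.1, 19.3, 24.5 and 20.9 CPM against 2.89, 5.42, 9.26 and 6.24 CPM (1.89 ± 0.34, edgeR adjusted p = 3.71e-04), and slc38a3b, a further system N carrier, differed by 1.70 ± 0.44 (edgeR adjusted p = 0.00726). Neither of these overlapped between the groups. The other 4 slc38a genes tested were not called, with log2 fold changes of 0.33 for slc38a2, -0.01 for slc38a10, -0.40 for slc38a6 and -1.08 for slc38a7.

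The heavy chain copies went opposite ways. slc3a2b was at 30.3, 40.2, 41.9 and 75.4 CPM against 27.5, 25.3, 18.5 and 21.1 CPM (1.18 ± 0.25, edgeR adjusted p = 0.0019), and slc3a2a at 0, 2.32, 3.06 and 4.19 CPM against 5.79, 21.7, 19.9 and 22.6 CPM (-2.70 ± 0.44, edgeR adjusted p = 1.87e-04), both without overlap. The slc3a2a mean of 2.39 CPM in endocardial-like cells was near the 2.24 CPM of arterial-like cells. Brain capillary-like cells were at 14.8 CPM and venous-like cells at 43.6 CPM. The slc3a2b mean of 46.9 CPM in endocardial-like cells was near the 45.4 CPM of venous-like cells. Its mean was 20.7 CPM in arterial-like and 6.17 CPM in brain capillary-like cells. slc2a1b was at 3.19, 0.773, 4.08 and 5.58 CPM against 7.23, 31.6, 21.4 and 11.7 CPM, lower in each library (-2.42 ± 0.53, edgeR adjusted p = 0.00218). slc16a9a had 3 transcripts in endocardial-like cells, and its ratio of blood endothelial to endocardial-like level was 16.9 (95% exact counting interval 5.54 to 84.3). Of the blood endothelial classes, its mean was 43.5 CPM in venous-like, 7.73 CPM in brain capillary-like and 3.07 CPM in arterial-like cells. Without WT 2 both slc2a1b and slc16a9a fell below the filter on low counts and were not tested. slc16a10 differed by -1.48 ± 0.29 (edgeR adjusted p = 8.92e-04). slc7a2, slc6a2, slc7a8a, slc7a6 and slc16a6b were called too, but slc7a2 lost its call with DESeq2 and was not tested without WT 2 or flt1mut 2, and calls were lost for slc6a2 without any 1 of the libraries, slc7a8a without WT 1, WT 2 or flt1mut 1, slc7a6 without flt1mut 1 and slc16a6b without flt1mut 2.

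Genes of glutamine metabolism gave 4 higher and 1 lower of 9 tested, and glycolysis genes 3 higher and 7 lower of 21, or 1 and 10 with library totals. Mesenchymal markers summed to 727 to 1087 CPM in endocardial-like and 56.0 to 85.0 CPM in blood endothelial cells, and cardiac muscle markers to 267 to 385 CPM against 0 to 8.68 CPM. Their part in these differences was not tested. Without the endocardial-like subcluster that had 1 cell of flt1mut 1, 7 members were higher and 7 lower, with no share of all genes given.

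Lymphatic-like cells were compared with the same blood endothelial cells. Of 24 members tested 7 were higher and 6 lower, against 9.05% and 11.3% of all 6610 genes. The comparison shares its blood endothelial cells with the endocardial one, so that their values are given side by side and not as a pair of independent results.

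slc7a2 was at 0, 25.7, 48.5 and 22.4 CPM in lymphatic-like and 0, 6.32, 0 and 3.12 CPM in blood endothelial cells, higher in 3 libraries and at 0 in both groups of WT 1 (3.38 ± 0.66, edgeR adjusted p = 5.13e-04). slc7a8a was at 66.7, 90.9, 42.1 and 78.6 CPM against 21.7, 40.6, 21.4 and 30.4 CPM, without overlap (1.25 ± 0.26, edgeR adjusted p = 7.41e-04). Its mean of 69.6 CPM in lymphatic-like cells was near the 69.4 CPM of venous-like cells, while arterial-like cells had 15.3 CPM. The high level of slc7a8a was thus not particular to lymphatic-like cells. slc38a2 was at 859, 503, 506 and 665 CPM against 424, 364, 363 and 401 CPM, higher in each library (0.65 ± 0.17, edgeR adjusted p = 0.00626). slc38a5b was lower, at 25, 41.2, 63.2 and 84.2 CPM against 176, 174, 153 and 148 CPM (-1.52 ± 0.24, edgeR adjusted p = 4.42e-05), where endocardial-like cells had been higher at 258, 263, 233 and 292 CPM. slc2a1b was at 0, 3.43, 4.21 and 0 CPM against 7.23, 31.6, 21.4 and 11.7 CPM (-2.97 ± 0.63, edgeR adjusted p = 0.00101), with no overlap in either gene.

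Both heavy chain copies were higher in every library, slc3a2a by 1.21 ± 0.31 (edgeR adjusted p = 0.00494) and slc3a2b by 1.03 ± 0.31 (edgeR adjusted p = 0.0184). Their calls were lost without flt1mut 2, and that of slc3a2b also without flt1mut 1. Venous-like cells alone had similar means. slc3a2a was at 41.9 CPM in lymphatic-like and 43.6 CPM in venous-like cells, and slc3a2b at 46.9 and 45.4 CPM. slc38a7, a lysosomal glutamine and asparagine exporter in mammals that was named after its values were seen, differed by 1.59 ± 0.39 (edgeR adjusted p = 0.00415) and lost its call without flt1mut 1. slc7a3b lost its call without WT 2 or flt1mut 2, slc7a6 and slc16a10 without WT 2 or flt1mut 1, and slc7a3a and slc16a6b without WT 2. slc2a1b was not tested, for low counts, without WT 2 or flt1mut 1. slc43a3b was at 58.4, 8.58, 6.32 and 5.61 CPM in lymphatic-like cells, high in WT 1 alone. Glycolysis genes gave 6 higher and 4 lower of 20 tested, and bsg was lower at -0.75 ± 0.18 (edgeR adjusted p = 0.0033).

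Granulocyte-like cells were compared with the other blood cells. They had high levels of carriers that were nearly absent from the other blood cells, dividing cells left out. slc7a11, slc2a6 and slc16a3 were at or under 1 CPM in those other cells and at 15.2 to 70.1 CPM in granulocyte-like cells. Of 49 members tested 13 were higher and 15 lower, against 17.3% and 18.4% of all 10008 genes. The median log2 fold change was -0.24 over the members and -0.08 over all genes.

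slc7a11, the cystine and glutamate exchanger gene, was at 48.2, 42.1, 70.1 and 47.2 CPM in granulocyte-like and 0.791, 0.995, 0.167 and 0 CPM in other blood cells (6.68 ± 0.44, edgeR adjusted p = 3.65e-07). slc7a7, which encodes y+LAT1, an exchanger of cationic and neutral amino acids, was at 38.9, 28.7, 53.5 and 39.6 CPM against 2.69, 3.4, 4.18 and 5.42 CPM (3.27 ± 0.21, edgeR adjusted p = 2.63e-07). slc7a3a was at 75.3, 138, 63.1 and 171 CPM against 13.9, 19.6, 15.8 and 40.4 CPM (2.27 ± 0.16, edgeR adjusted p = 4.82e-07). All 3 were higher in each library and did not overlap between the groups. The heavy chain gene slc3a2a was at 13.5, 44.1, 7.65 and 32 CPM against 3.64, 11.4, 3.84 and 3.97 CPM, higher in each library with overlap (1.98 ± 0.29, edgeR adjusted p = 2.52e-04), whereas slc3a2b was lower by -0.74 ± 0.20 (edgeR adjusted p = 0.0137), a call lost without WT 2 or flt1mut 2.

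The sugar carrier genes slc2a6 and slc2a3b and the lactate carrier gene slc16a3 were higher too. slc2a6, which encodes the lysosomal sugar carrier GLUT6, was at 15.2, 40.7, 22.3 and 36.6 CPM against 0, 0.332, 0.251 and 0.387 CPM (6.67 ± 0.33, edgeR adjusted p = 3.60e-08). slc2a3b, a copy of the high-affinity glucose transporter GLUT3, was at 61.8, 92.8, 54.8 and 61.7 CPM against 13.1, 21.1, 8.78 and 11.4 CPM (2.29 ± 0.14, edgeR adjusted p = 2.20e-07). Thrombocyte-like cells, among the other blood cells here, had slc2a3b at a mean of 141 CPM, above each granulocyte-like value. slc16a3, which encodes the lactate exporter MCT4, was at 26.2, 18, 26.8 and 35.8 CPM against 0.633, 0.8289, 0.418 and 0.774 CPM (5.20 ± 0.31, edgeR adjusted p = 1.40e-07). None of these overlapped, and each call held without any 1 library. slc5a8l, a copy of a sodium-coupled monocarboxylate transporter gene, was lower, at 3.39, 2.67, 1.91 and 0.762 CPM against 4.11, 8.37, 5.52 and 4.93 CPM, and its call (-1.48 ± 0.40, edgeR adjusted p = 0.0138) was lost without WT 2 or flt1mut 2 and with DESeq2. Of the glycolysis list 14 of 24 genes tested were higher and 1 was lower, with gapdh at 175, 87.5, 269 and 329.9 CPM against 2.53, 2.74, 3.01 and 3.68 CPM (6.0 ± 0.22, edgeR adjusted p = 2.52e-09).

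**Figure D2:**
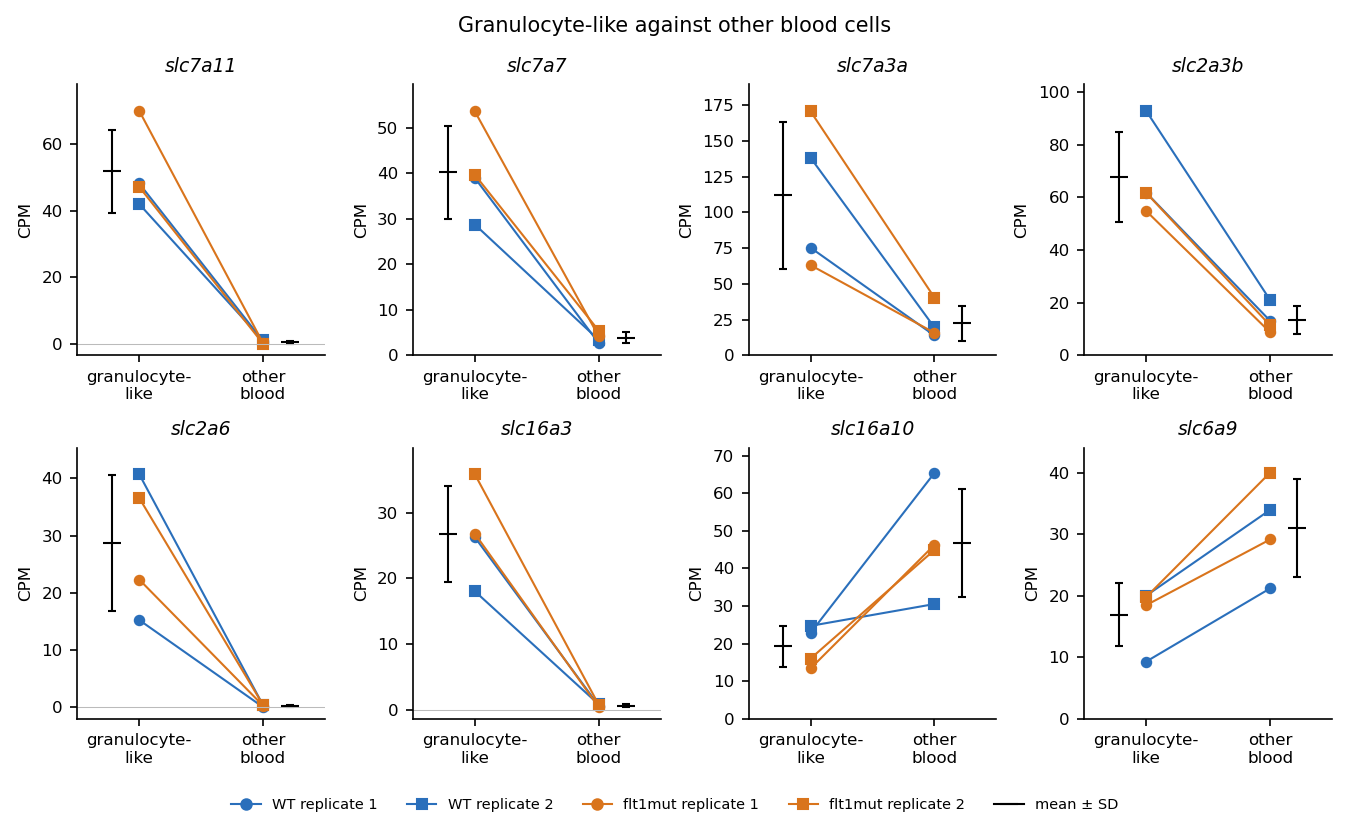
Levels (CPM, vertical axes, linear and from 0) of 8 members in granulocyte-like and in the other blood cells; points are libraries, lines join a library's values, and bars give the mean ± SD. slc7a11 stood at 42.1 to 70.1 CPM against 0 to 0.995 CPM, while slc16a10 and slc6a9 were lower in every library.

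Among the lower members, slc16a10 was at 22.8, 24.7, 13.4 and 16 CPM against 65.4, 30.5, 46.2 and 44.9 CPM (-1.31 ± 0.23, edgeR adjusted p = 8.26e-04) and slc6a9 differed by -0.93 ± 0.17 (edgeR adjusted p = 0.00116), both without overlap. slc38a3b differed by -1.50 ± 0.31 (edgeR adjusted p = 0.0029). slc43a2a, a copy of the neutral amino acid carrier LAT4, was at a mean of 0.903 ± 0.826 against 6.28 ± 2.77 CPM (SD, n = 4; -2.86 ± 0.56, edgeR adjusted p = 0.00201). slc6a22.2 and slc43a3a had 0 transcripts in granulocyte-like cells and were at least 13.6-fold and at least 5.28-fold lower, and slc43a3a was not tested, for low counts, without flt1mut 1 or flt1mut 2. Among the other blood cells, erythrocyte-like cells had them at means of 43.1 and 16.1 CPM and thrombocyte-like cells at 0.336 and 0 CPM. Their low level was thus not particular to granulocyte-like cells. Macrophage markers summed to 56.1 to 234 CPM in granulocyte-like cells and to 3.01 to 7.96 CPM in the other blood cells, with 5 called higher, and their part was not tested.

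Erythrocyte-like cells were compared with the other blood cells over WT 1, flt1mut 1 and flt1mut 2. Markers of erythrocytes took 598078 to 748369 CPM of the erythrocyte-like sums, so that the scaling weighed heavily. With TMM 13 of 47 members tested were higher and 8 lower, against 14.2% and 21.7% of all 9349 genes, with a median over all genes of -0.58. With library totals 6 were higher and 26 lower, against 3.9% and 68.5%, with a median over all genes of -2.44. The 6 members higher under both were slc43a3a, slc38a8b, slc6a22.2, slc6a16a, slc16a10 and slc38a5a.

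slc16a10 was at 106.8, 151 and 142 CPM in erythrocyte-like and 54.1, 30.1 and 30.1 CPM in other blood cells, without overlap (3.75 ± 0.37, edgeR adjusted p = 1.46e-22). slc6a22.2 was at 43.3, 55.9 and 30.1 CPM against 5.25, 4.77 and 2.97 CPM (5.23 ± 0.44, edgeR adjusted p = 1.85e-30). slc43a3a was at 10.8, 11.6 and 25.9 CPM against 1.17, 1.89 and 0.861 CPM (5.45 ± 0.61, edgeR adjusted p = 1.99e-17). slc38a5a was at 52.6, 32.7 and 109 CPM against 20.6, 21.8 and 27.5 CPM (3.21 ± 0.39, edgeR adjusted p = 4.32e-15), and in all 4 genes each erythrocyte-like value lay above each other one. These log2 fold changes are on the TMM scale and are larger than the CPM alone give. Thrombocyte-like cells, among the other blood cells here, had slc38a5a at a mean of 66.3 CPM, against 64.9 CPM in erythrocyte-like cells. slc38a8b, named after its values were seen, was detected in 2 of 3 libraries, at 12.4, 4.35 and 0 CPM.

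Several carriers had no transcript in erythrocyte-like cells. slc2a3b was at 0, 0 and 0 CPM there against 22.8, 15.7 and 19 CPM, at least 19.9-fold lower with library totals and at least 5.61-fold lower on the TMM scale, taking a floor of 3 counts over the group. On the TMM scale, which gives the smaller bounds here, slc7a7 was at least 3.13-fold, slc7a11 at least 2.43-fold, slc5a6b, a multivitamin transporter copy, at least 2.18-fold and slc16a5a, of the monocarboxylate carrier family, at least 1.98-fold lower. slc6a7 and slc16a1b had 3 transcripts and 1, with ratios on that scale of 5.23 (95% exact counting interval 1.78 to 25.4) and 8.82 (1.57 to 349). slc7a7 and slc7a11 were called higher in granulocyte-like cells, which are among the other blood cells here. In thrombocyte-like cells slc7a11 was at 0 CPM and slc7a7 at 0.336 CPM, so their low level was not particular to erythrocyte-like cells.

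Of the 21 calls in erythrocyte-like cells, 8 held on leaving out each of the 3 libraries: those of slc16a10, slc6a22.2, slc43a3a, slc38a5a, slc2a3b, slc3a2b, slc1a5 and slc7a3a. Those of slc5a6b, slc7a11, slc16a5a, slc16a1b, slc38a2 and slc7a6os were lost on leaving out any 1 of them, and slc6a16a was then not tested for low counts. slc7a7 and slc6a7 lost their calls without flt1mut 1 or flt1mut 2, slc1a4 without WT 1 or flt1mut 2, slc6a9 without WT 1 or flt1mut 1 and slc7a8a without flt1mut 1, and slc38a8b was not tested without WT 1 or flt1mut 1. slc38a2, slc7a8a and slc6a9 were called higher with TMM and had log2 fold changes under 0 with library totals, while slc3a2b, slc1a5, slc1a4 and slc7a3a were called higher with TMM alone. In the amino acid response list 6 of 11 genes were higher and 2 lower under TMM but 3 and 4 with library totals. In the serine and glycine list the counts were 4 and 1 of 7 under TMM and 2 and 2 with totals, and in the glycolysis list 6 and 14 of 25 and 3 and 19.

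Thrombocyte-like and progenitor-like cells had no comparison of their own, and their levels are given as a description. In thrombocyte-like cells slc2a3b was at 179, 174, 75.1 and 135 CPM, the highest mean of any class. slc5a8l was at 53.6, 89.9, 83.5 and 72.4 CPM, slc38a5a at 44.7, 80.5, 75.1 and 64.9 CPM and slc6a6b at 71.5, 48.3, 72.3 and 49.9 CPM. In drl progenitor-like cells slc43a1a was at 38, 49.7, 46.7 and 52.8 CPM and slc38a5b at 99.5, 105, 103 and 119 CPM, and in lymphoid-like cells slc6a9 was at 34.2, 47, 42.2 and 61.3 CPM. Every library had transcripts of each of these genes in the class named.

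Of 29 a and b pairs among the members, 6 had both copies at 10 CPM or more in a named vascular or blood class. The class of a copy's highest mean is a description, since the class next in order often lay within the spread. Copies are ranked over the 11 named vascular and blood classes only, and other cells of the sort had higher means for some. Mesenchymal-like cells had slc38a5b at 263 CPM and slc43a1a at 58.6 CPM. Unnamed endothelial cells had slc7a3b at 119 CPM and slc3a2a at 71.2 CPM. slc7a3a was highest in granulocyte-like cells (112 ± 51.2 CPM, SD, n = 4), followed by brain capillary-like cells (78.4 ± 43.6 CPM), and slc7a3b in lymphatic-like (81.2 ± 19.6 CPM), followed by venous-like cells (59.3 ± 27.4 CPM). slc38a5a was highest in thrombocyte-like (66.3 CPM) and erythrocyte-like cells (64.9 CPM), which do not differ beyond their spread, and slc38a5b in endocardial-like cells (261 ± 24.2 CPM), followed by brain capillary-like cells (189 ± 60.03 CPM). slc43a1a was highest in drl progenitor-like cells (46.8 ± 6.35 CPM), followed by endocardial-like cells (36.9 ± 11.3 CPM).

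slc43a1b was at 17.7, 44.2, 8.04 and 3.23 CPM in venous-like cells, high in WT 2 alone, and at a similar mean of 16.1 ± 2.90 CPM (SD, n = 4) in lymphatic-like cells. slc43a3a was highest in erythrocyte-like cells (16.1 CPM), and slc43a3b reached 10 CPM only through the WT 1 value in lymphatic-like cells given above. The heavy chain copies had their highest means in overlapping sets of classes, slc3a2a in venous-like (43.6 ± 25.5 CPM) and lymphatic-like cells (41.9 ± 22.4 CPM) and slc3a2b in lymphatic-like (46.9 CPM), endocardial-like (46.9 CPM) and venous-like cells (45.4 CPM). The copies of slc16a9 were both highest in venous-like cells.

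**Figure D3:**
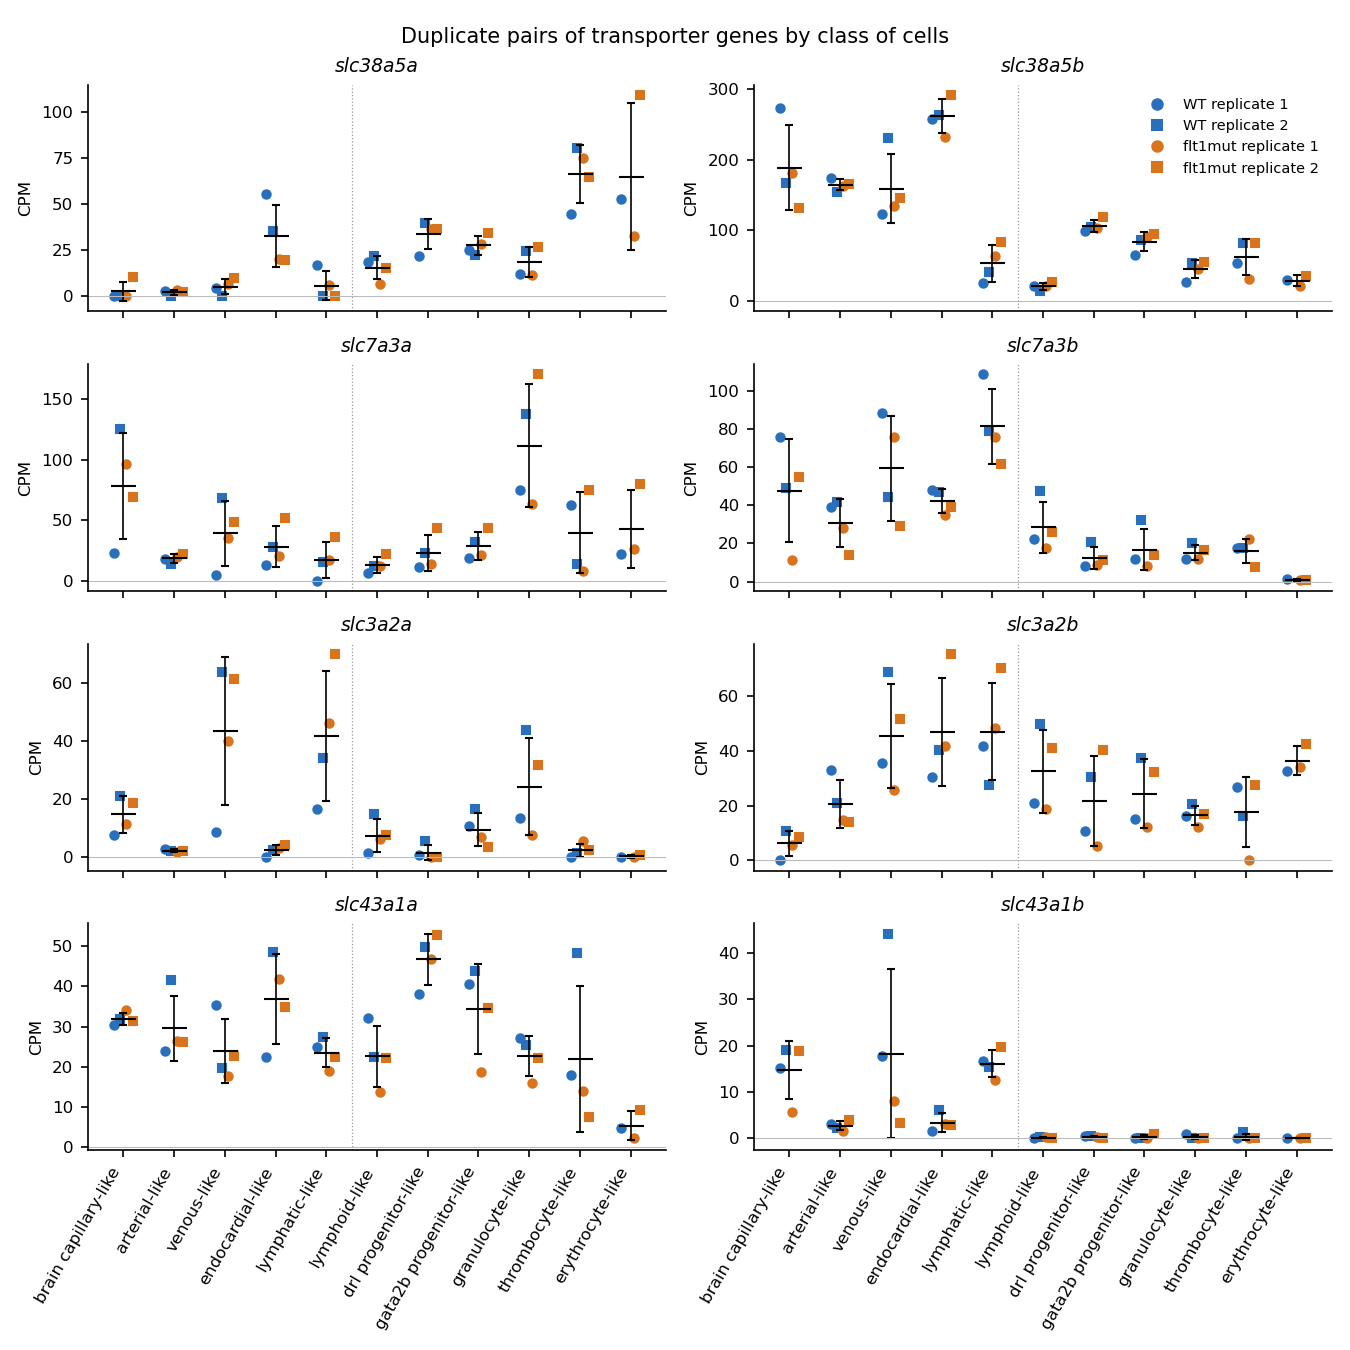
Levels (CPM, vertical axes, linear) of the a and b copies of slc38a5, slc7a3, slc3a2 and slc43a1 in 11 vascular and blood classes; points are libraries and bars give the mean ± SD. slc38a5b exceeds slc38a5a in each endothelial class (261 against 32.8 CPM in endocardial-like cells), and slc7a3a has its highest mean, 112 CPM, in granulocyte-like cells.

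Finally flt1mut and WT libraries were compared within each lineage, 2 against 2. flt1 itself was at 297, 168, 246 and 205 CPM in endothelial cells, the first pair of values being WT, and a mutation that need not lower the transcript leaves this level unable to check the labels. No member passed the threshold in endothelial cells, where 40 were tested and 0.0% of all 10019 genes were called. At an unadjusted p under 0.05 there were 2 members, against 4.47% of all genes, and DESeq2 called 0 members and 6 genes. The smallest adjusted p among the members was 0.993 in edgeR's quasi-likelihood test.

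The log2 fold changes in endothelial cells lay between -1.17 and 0.58, and 27 of the 40 were within 0.5 of 0. slc38a2 was at 436, 419.9, 406 and 463 CPM, with WT values inside the range of the flt1mut values (-0.06 ± 0.23). The lowest p-values belonged to slc38a5a, at 25.8, 15.6, 9.92 and 9.11 CPM (-1.17 ± 0.40), and slc6a4a, at 11.9, 16.8, 7.53 and 9.11 CPM (-0.88 ± 0.34). In both genes each flt1mut value lay below each WT value, and 12 of 40 members had no overlap of genotypes in either direction, against 32.6% of all genes tested. With the replicate number as a block, slc38a5a alone was called.

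In blood cells 56 members were tested and none passed, against 0.136% of all 11772 genes. At an unadjusted p under 0.05 there were 5 members, against 7.66% of all genes, and DESeq2 called 0 members and 93 genes. The smallest adjusted p was 0.476, for slc2a3b at 20.8, 29, 14.1 and 17.1 CPM (-0.77 ± 0.22; edgeR quasi-likelihood). slc16a6b, next by unadjusted p, was at 3.2, 5.01, 0.887 and 1.97 CPM (-1.63 ± 0.50). The flt1mut values of both lay below the WT values. Blood was made up differently in the libraries, with erythrocyte markers at 62457 to 77155 CPM in flt1mut and 7301 to 63823 CPM in WT, and macrophage markers at 9.16 to 12 CPM in flt1mut and 26.1 to 40.1 CPM in WT; their part in these values was not tested.

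The genotype difference was also compared between lineages. Of 59 members none passed, against 0.0% of all 12717 genes. At an unadjusted p under 0.05 there were 3 members, against 2.85% of all genes, and DESeq2 called 0 members and 0 genes. slc3a2a had a difference of 1.58 ± 0.44 between its endothelial and blood fold changes (edgeR adjusted p = 1), and slc7a2 and slc38a5a were the others under 0.05 before adjustment. With 2 libraries a genotype, these counts do not show that the transporters are alike in WT and flt1mut.

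**Figure D4:**
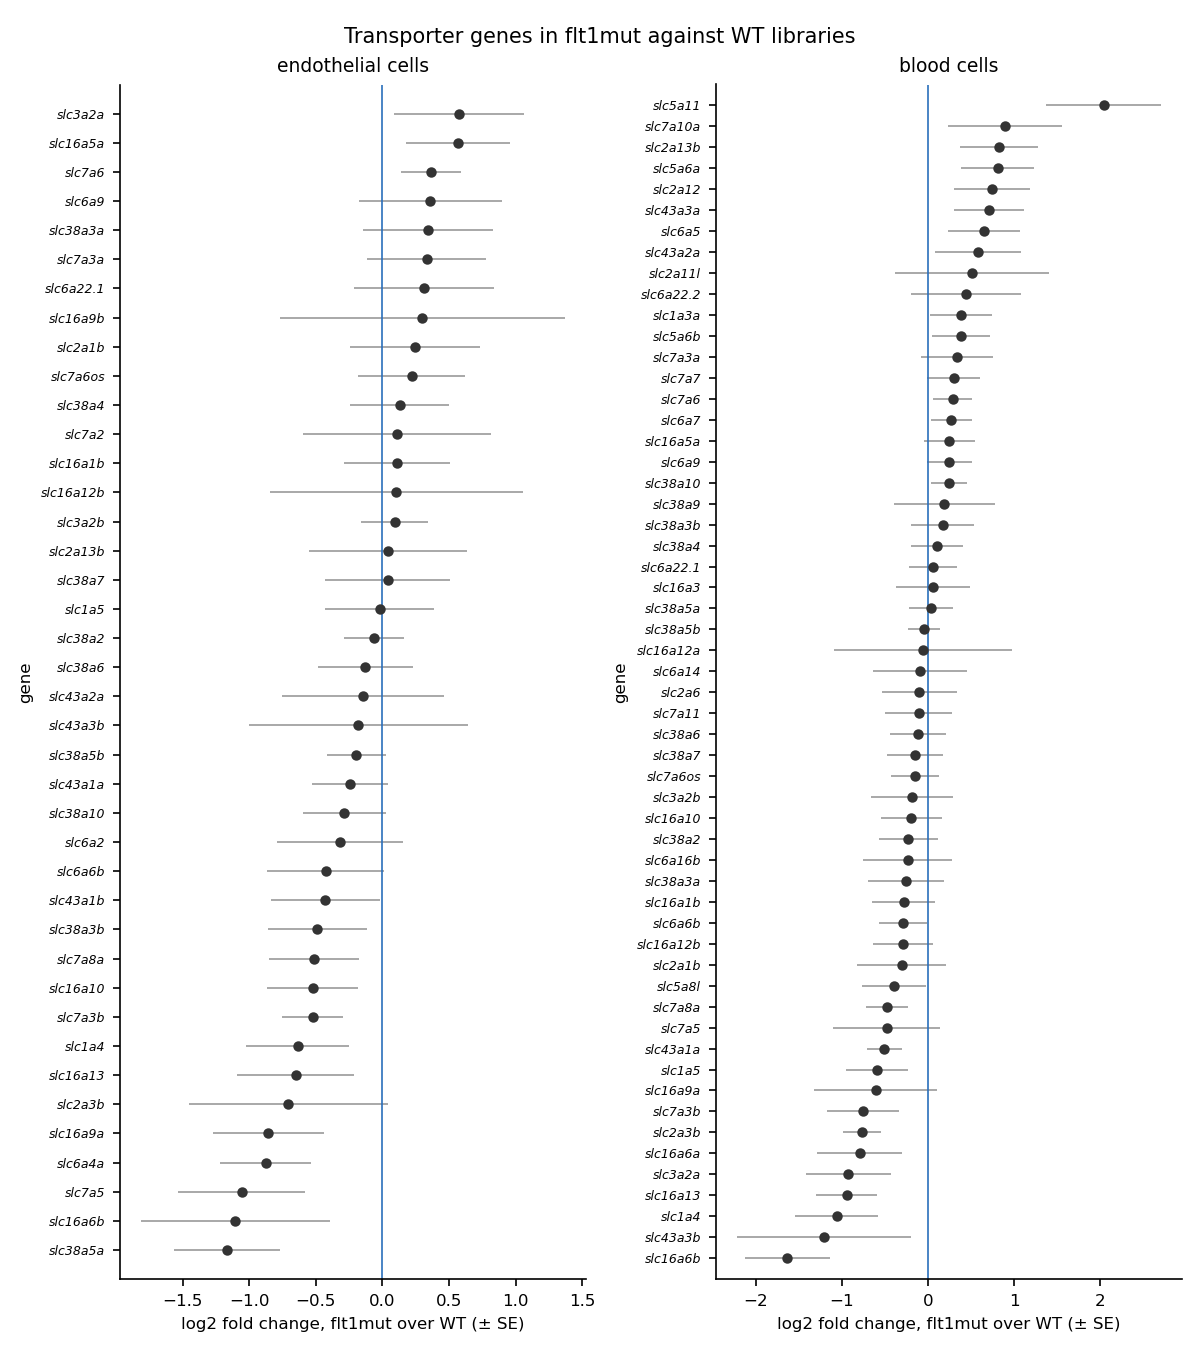
Log2 fold changes of flt1mut against WT (horizontal axis) with SE bars for the 40 members tested in endothelial and the 56 tested in blood cells (rows). No member passed the adjusted threshold, and most endothelial estimates lie within 0.5 of 0.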

How the data were processed

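The authors deposited, per the labels, raw UMI count matrices from Cell Ranger on GRCz11 for 4 libraries; the labels and the methods differ on the chemistry version. Cells with 200 to 4500 genes and under 5% mitochondrial counts were kept. Seurat 5.3.0 (R 4.3.3) clustered them on 20 principal components at resolution 0.5 and endothelial cells again at resolution 1, without transporters and companion list genes among the variable genes. Each library pools embryos, so the replicates behind the p-values are pools and not single embryos. In erythrocyte-like cells, with the fewest libraries, the smallest adjusted p over all genes was 1.17e-140 (edgeR quasi-likelihood test). The spread of so few pools cannot alone give such a value. The adjusted p of that comparison are therefore not a measure of the spread between pools alone.

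Counts were summed per library and class (10 or more cells) and tested with edgeR 4.0.16 (quasi-likelihood, TMM, filterByExpr), with library as a block within libraries and genotype alone between them. The method was tested on simulated data. Of the simulated calls, 4 of 146 were false for lymphatic-like cells and 21 of 175 for granulocyte-like cells. For genotype 10 of 72 were false in endothelial and 12 of 78 in blood cells. Simulated log2 fold changes of 1 were recovered in 50 to 66% of cases in the other comparisons within libraries. Recovery was 7% for erythrocyte-like cells, and for genotype 2% in endothelial and 8% in blood cells. DESeq2 1.42.0, other scalings, filters, groupings and leaving out each library were alternatives; totals in place of TMM, the choices on dividing and erythrocyte-like blood cells and leaving out subclusters were chosen after seeing the data. Intervals cover counting error only.

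Members and lists were chosen with earlier results of these data known. Members were named by a rule: the 12 highest in endothelial and in blood classes, the highest of each family, up to 8 called each way per comparison with 1 direction in every library, and genes of known role. The companion genes, slc38a6, slc38a7, slc38a8b, slc6a22.1 and the neuron-like genes were named after their values were seen.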

Additional observations from a re-analysis of the deposited data

Results flagged for a closer look

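Of 140 groups of 4 libraries examined for the named members, 9 held a library that stood apart from the other 3 by more than Dixon's 95% critical value, where chance gives about 1 in 20. In endothelial cells, slc7a5 was at 11.3 CPM in WT 2 and at 4.17 to 5.30 CPM elsewhere, and slc7a11 at 0.759 CPM in flt1mut 2 and 0 elsewhere. In blood cells, slc7a2 was at 2.51 CPM in WT 2 and 0 elsewhere, and slc16a9b at 1.87 CPM in WT 1 and at 0.257 to 0.516 CPM elsewhere. In other blood endothelial cells, slc2a1b was at 18.7 CPM in flt1mut 1 and at 6.21 to 7.86 CPM elsewhere. In arterial-like cells, slc16a9b was at 8.06 CPM in flt1mut 2 and 0 elsewhere. In endocardial-like cells, slc16a6b was at 17.0 CPM in WT 2 and at 0 to 2.79 CPM elsewhere. In blood endothelial cells, slc3a2a was at 5.79 CPM in WT 1 and at 19.9 to 22.6 CPM elsewhere, a group used in both the endocardial and the lymphatic comparison.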

How the results depend on the processing

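Of the members' fold changes under the alternatives, 1315 kept their direction and side of the threshold, 232 lost the threshold and 6 changed sign. The sign changes were slc43a1a (0.036) between endothelial and blood cells and slc38a2 (-0.91), slc7a8a (-0.50) and slc6a9 (-0.48) in erythrocyte-like cells with library totals, slc1a4 (-1.79) with classes weighted equally, and slc43a1a (0.018) in granulocyte-like cells without the tenth of cells with most UMIs. Members that fell below the filter on low counts under an alternative are not among these. Counts of members called stayed within 1.5 times in 93 cases and moved further in 21. DESeq2 called 4 members in the brain capillary-like and 7 in the lymphatic-like comparison. Without the library block, 3 were called in brain capillary-like, 2 in venous-like, 7 in endocardial-like, 4 in lymphatic-like and 16 in granulocyte-like cells. Library totals gave 32 in erythrocyte-like cells. Leaving out 1 library gave 34 to 38 calls between endothelial and blood cells, 3 to 7 in brain capillary-like, 6 to 8 in venous-like, 10 to 16 in endocardial-like, 7 to 13 in lymphatic-like, 9 to 11 in erythrocyte-like and 17 to 24 in granulocyte-like cells. The fewest came without WT 2 in brain capillary-like (3) and lymphatic-like cells (7), without flt1mut 1 in erythrocyte-like (9) and without flt1mut 2 in granulocyte-like cells (17). The cause was not tested. Apart from library totals, shares of all genes under these alternatives are not given. The counts therefore show only how the calls of members moved.

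For genotype, leaving out 1 library gave 0 to 0 calls in endothelial cells, 0 to 2 in blood cells and 0 to 1 for the difference between lineages, the highest without WT 1. With no filter on low counts, slc7a2 was the 1 member called in blood cells and for the difference between lineages. With the replicate number as a block 1 member was called in endothelial cells, 0 in blood cells and 0 for the difference between lineages. Same-numbered libraries deviated together (Pearson r 0.42 and 0.39 over genes), but with 2 pairs and no label saying what a number marks they share only a number. Leaving out WT 2 was not run for erythrocyte-like cells, since it has no sum there. Rare classes rest on as few as 13 cells in a library, so differences of low members were often not detectable at this depth.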

Other observations

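Neuron-like cells of the sort, 113 cells in 3 libraries, had a summed member level of 3011 ± 669 CPM (SD, n = 3), above every vascular and blood class. slc1a2b, a glutamate transporter known in mammals from glia, was at 280.3, 649 and 1128 CPM there (WT 1, flt1mut 1 and flt1mut 2), and slc6a1b, a GABA transporter copy, at 166, 788 and 123 CPM. The 3 libraries differed by several fold in both genes, and no comparison was made for these cells.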
